A study of Mus musculus with 82 samples.

Results

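Gata4, Gata6, Sox17, Foxa2, Eomes, Mixl1, Pax6, Sox1, Cdx2 and Olig2 are regulators of cell lineage that are commonly described as bivalent in embryonic stem cells. These 10 genes, of 24755 genes with a curated RefSeq transcript (22381 with a body of at least 500 bases), were taken as a group by name, and each was followed on its GRCm38 span as sense reads, split into the 500 bases on each side of the annotated start (the promoter) and the span without 500 bases at each end (the body). Nascent RNA was measured in mouse V6.5 embryonic stem cells, a line from a cross of C57BL/6 and 129/sv, grown in serum medium with leukemia inhibitory factor on gelatin. All groups are the same line, untreated, and are set apart by the assay, although the assays were mostly run in different experiments. In AGTuC, engaged polymerases of bulk nuclei incorporate propargyl nucleotides in a strong detergent that opens the nuclei, and the tagged RNA 3′ ends are captured by click chemistry. In inAGTuC the run-on is made in intact nuclei at low detergent and wells of a plate receive pools of nuclei, and in scGRO–seq each well receives 1 nucleus and its own barcode. AGTuC is represented by 2 libraries of 1 experiment, inAGTuC by 4 libraries, and scGRO–seq by 10 experiments with 2512 kept cells. The inAGTuC library Exp261_c16 was also deposited as scGRO–seq and is counted here as inAGTuC. The inAGTuC libraries Exp208_c12 and Exp208_c14 come from 1 experiment, which is also 1 of the 10 scGRO–seq experiments, and the fits count libraries of AGTuC and inAGTuC and experiments of scGRO–seq as replicates alike. Because both AGTuC libraries are from 1 experiment, assay and experiment cannot be told apart, and p-values measure only the spread between these samples, which may be technical.

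In embryonic stem cells the promoters of many lineage regulators carry the activating mark H3K4me3 and the Polycomb mark H3K27me3 together, and the genes are held at low expression until differentiation. RNA polymerase II may still start at such promoters, pause near the start and release few elongating complexes. Run-on assays read the position of engaged polymerases, and therefore show polymerases near the start apart from those in the body. Reads near the start do not tell initiation from pausing. The paper reports that inAGTuC and scGRO–seq capture paused polymerases near the start less well, and attributes this to the low detergent. A low promoter count in these assays therefore need not mean few polymerases at the start. Neither mark was measured in these data, so the term bivalent is here a name of the group and not a result.

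The body UMIs of a sample ranged from 1092943 to 2262090 in AGTuC, from 255889 to 816382 in inAGTuC and from 136993 to 2431659 in scGRO–seq. Promoter UMIs made up 23.99%, 5.24% and 4.38% of promoter and body UMIs together in the 3 assays. Molecules listed in more than 1 library were left out, which removed 0.329% of AGTuC, 16.8% of inAGTuC and 28.9% of scGRO–seq reads. The 2512 kept cells carry 254 distinct barcodes, of which 226 occur in more than 1 library. The cells were checked against markers of stem cells, and all 10 pluripotency genes had body reads in each assay. This alone identifies little, since of 22381 genes only 4691, 1417 and 835 had none in AGTuC, inAGTuC and scGRO–seq. The summed level of the pluripotency genes was 12.7 to 13.1 in AGTuC, 3.42 to 5.91 in inAGTuC and 2.51 to 8.36 in scGRO–seq. That of all genes was 0.959 in each assay. Levels are given throughout as UMIs per kb of body per 1000000 body UMIs of the sample, and promoter levels as UMIs in the promoter per 1000000 body UMIs. Of 13 fibroblast markers 6, including Col1a2, Col3a1 and Dcn, had no body read in AGTuC, while Col5a1 had 94 and Pdgfrb 79 body UMIs there. In inAGTuC and scGRO–seq all 13 had body reads. The level summed over the list was 0.118 to 0.120 in AGTuC, against 0.214 to 0.627 in inAGTuC and 0.173 to 0.757 in scGRO–seq.

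The promoters of 4 of the genes are shown from RefSeq, build GRCm38.p6, because Sox1 and Olig2 had the most AGTuC promoter reads of the matched genes, and Cdx2 and Eomes few. Each sequence runs 5′ to 3′ on the strand of the gene, from 250 bases before to 50 bases after the annotated start. In Sox1, Cdx2 and Eomes the capitals mark CpG dinucleotides. In Olig2 they mark the letters TATAAA and, behind them, the bases at which at least 2 AGTuC reads have their RNA 5′ end. Sox1 is at chr8:12395269-12395568 on the plus strand, Olig2 at chr16:91225300-91225599 on the plus strand, Cdx2 at chr5:147307200-147307499 on the minus strand and Eomes at chr9:118477939-118478238 on the plus strand.
Sox1: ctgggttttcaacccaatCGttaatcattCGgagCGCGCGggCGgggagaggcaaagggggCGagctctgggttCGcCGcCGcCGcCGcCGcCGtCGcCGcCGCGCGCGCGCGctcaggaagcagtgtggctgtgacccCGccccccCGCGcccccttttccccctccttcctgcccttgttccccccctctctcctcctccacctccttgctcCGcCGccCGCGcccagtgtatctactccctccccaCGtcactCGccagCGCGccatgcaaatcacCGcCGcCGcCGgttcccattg
Olig2: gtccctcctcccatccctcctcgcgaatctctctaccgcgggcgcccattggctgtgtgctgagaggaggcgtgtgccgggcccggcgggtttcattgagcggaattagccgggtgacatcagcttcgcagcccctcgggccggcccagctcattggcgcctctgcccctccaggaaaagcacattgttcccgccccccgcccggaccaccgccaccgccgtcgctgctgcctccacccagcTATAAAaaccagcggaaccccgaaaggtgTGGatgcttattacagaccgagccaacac
Cdx2: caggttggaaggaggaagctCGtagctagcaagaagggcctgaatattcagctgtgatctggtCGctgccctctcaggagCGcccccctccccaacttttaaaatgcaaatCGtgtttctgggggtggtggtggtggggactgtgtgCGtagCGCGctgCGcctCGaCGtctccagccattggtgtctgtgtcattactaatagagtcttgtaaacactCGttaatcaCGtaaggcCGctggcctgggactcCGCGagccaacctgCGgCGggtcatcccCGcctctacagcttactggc
Eomes: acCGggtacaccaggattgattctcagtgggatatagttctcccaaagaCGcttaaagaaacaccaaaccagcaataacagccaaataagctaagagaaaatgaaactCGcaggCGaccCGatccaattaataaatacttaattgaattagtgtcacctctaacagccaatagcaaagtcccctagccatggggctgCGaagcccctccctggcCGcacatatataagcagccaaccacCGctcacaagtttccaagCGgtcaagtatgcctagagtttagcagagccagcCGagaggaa

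The promoter table held 6 of the 10 genes. CpG dinucleotides numbered 37 in Sox1, 25 in Olig2, 18 in Cdx2 and in Pax6, 12 in Foxa2 and 10 in Eomes, against a median of 12 over 19139 promoters (quartiles 4 and 24). Sox1 thus stood at percentile 93.6 of all promoters, Olig2 at 77.4 and Eomes at 45.6. The letters TATAAA, searched on both strands over the 300 bases, occurred in Olig2 alone among the 6, on its own strand, and occur on at least 1 strand in 13.1% of all promoters and on the strand of the gene in 8.68%. Their first T is 8 bases before the annotated start, at an offset of -8. This search, for that exact string only, was chosen after the sequences and the read positions had been seen. Variants of the string were not searched, among them the letters tatataag before the annotated start in the Eomes sequence.

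Sox1, a neural regulator of the SoxB1 family, had the most AGTuC reads of the 10 genes. Its single exon lies at chr8:12395519-12399555. Its promoter held 36 and 114 UMIs in the 2 AGTuC libraries, and its body 80 and 159, which is a level of 24.1 and 23.2. In the 4 inAGTuC libraries the body level was 2.57, 3.62, 3.03 and 0.807, from 13 UMIs together. Over the 10 scGRO–seq experiments it had a lowest value of 0, a median of 1.30 and a highest value of 11.3, from 23 UMIs together. Both AGTuC values therefore lay above every value of the other assays. How many of all genes separate by assay in this way was not counted, here and for the genes below. Among 1869 genes of like span, the longer of a pair being at most 125% of the shorter, Sox1 stood at percentile 96.8 by body level in AGTuC, at 82.9 in inAGTuC and at 78.9 in scGRO–seq. In AGTuC its level pooled over libraries, 23.5, lay beside Pou5f1 with 20.4 and Nanog with 18.7 and below Sox2 with 98.2, the core pluripotency factors. In scGRO–seq Sox1, Pou5f1, Nanog and Sox2 had pooled levels of 1.46, 7.24, 4.45 and 12.5.

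The polymerases on Sox1 were not at the annotated start itself. Of 150 sense promoter reads in AGTuC, 143 lay 100 to 500 bases after the start, 4 in the first 100 bases and 3 before it. RNA 5′ ends, read from reads shorter than 65 bases, were most frequent at offsets of 93 and 99 (7 reads each) and of 92 (5 reads), with the polymerase at a median offset of 135, 144 and 129. Both libraries held reads of each. A read shorter than 65 bases places the polymerase within that length of its 5′ end. The spacing is thus bounded by the choice of reads and is not a measured pause distance. The study's methods include fragmentation of the RNA, so a 5′ end need not be a start of transcription. The sequence shown for Sox1 ends before these offsets. On the opposite strand 68 reads lay in the 500 bases before the start, 21 and 47 in the libraries. The long noncoding gene Sox1ot overlaps Sox1 on the same strand, so that reads in Sox1 cannot be assigned to one of them. The AGTuC level of Sox1ot was 0.0645 before Sox1, 28.8 on the Sox1 span and 2.15 behind it.

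Olig2, a basic helix-loop-helix factor of oligodendrocytes and motor neurons, followed Sox1. It lies at chr16:91225550-91228677. The promoter held 15 and 48 UMIs in AGTuC and the body 140 UMIs, 39 of them in the first library, a body level of 16.8 and 20.99. In inAGTuC the body level was 1.84, 4.13, 5.40 and 0, from 10 UMIs. In scGRO–seq it had a lowest value of 0, a median of 0.345 and a highest value of 9.64, from 8 UMIs. As for Sox1, the AGTuC values did not overlap those of the other assays, which is a description without the share of all genes beside it. Its AGTuC percentile among 1524 genes of like span was 94.95, against 82.6 in inAGTuC and 61.2 in scGRO–seq.

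In Olig2 the RNA 5′ ends gathered at offsets of 21, 22 and 23, with 9, 7 and 3 reads from both libraries. These are the 3 capital bases behind TATAAA in the sequence above, 29, 30 and 31 bases from its first T. The polymerases of the first 2 of these groups had a median offset of 55, under the limits of read length and fragmentation given for Sox1. Of 63 sense promoter reads 28 lay in the first 100 bases and 33 from 100 to 500 bases, and 25 antisense reads lay in the 500 bases before the start.

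Gata4, a zinc finger factor of endoderm and heart, had AGTuC promoter reads that gathered in the first 100 bases. In AGTuC it stood near the middle of genes of like span in promoter and body. It spans chr14:63198914-63245271. In the AGTuC libraries the promoter held 8 and 21 UMIs, against 22 and 47 in a body of 45357 bases, a body level of 0.444 and 0.458. In inAGTuC the body level was 1.21, 1.16, 2.08 and 0.243. Over the scGRO–seq experiments it had a lowest value of 0.149, a median of 0.329 and a highest value of 1.29. The AGTuC body level thus lay inside the range of the other assays. Its percentile among genes of like span was 43.4 in AGTuC, 57.9 in inAGTuC and 32.8 in scGRO–seq. By promoter level Gata4 stood at percentile 50.6 of the same genes in AGTuC, at 42.7 in inAGTuC and at 37.95 in scGRO–seq. Of its 29 sense promoter reads in AGTuC, with a median offset of 67, 24 were in the first 100 bases. In AGTuC 8 RNA 5′ ends fell on the offset of 23, 1 and 7 in the libraries.

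Mixl1, a homeobox gene of the primitive streak, had nearly all of its AGTuC reads at the promoter. It lies at chr1:180693043-180697034. The promoter held 7 and 27 UMIs in AGTuC, and the body 0 and 1. Promoter UMIs were thus 97.1% of promoter and body UMIs together, with a 95% Wilson interval of 85.5% to 99.5% that covers counting error only. Of the 34 promoter reads 26 lay before the annotated start, with RNA 5′ ends most often at offsets of -114 (5 reads, all from 1 library) and -211 (4 reads). On the other strand 26 reads lay 100 to 500 bases behind the annotated start. The polymerases of both strands thus faced each other across the annotated start. In scGRO–seq its promoter held 9 UMIs and in inAGTuC 1 UMI.

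**Figure D1:**
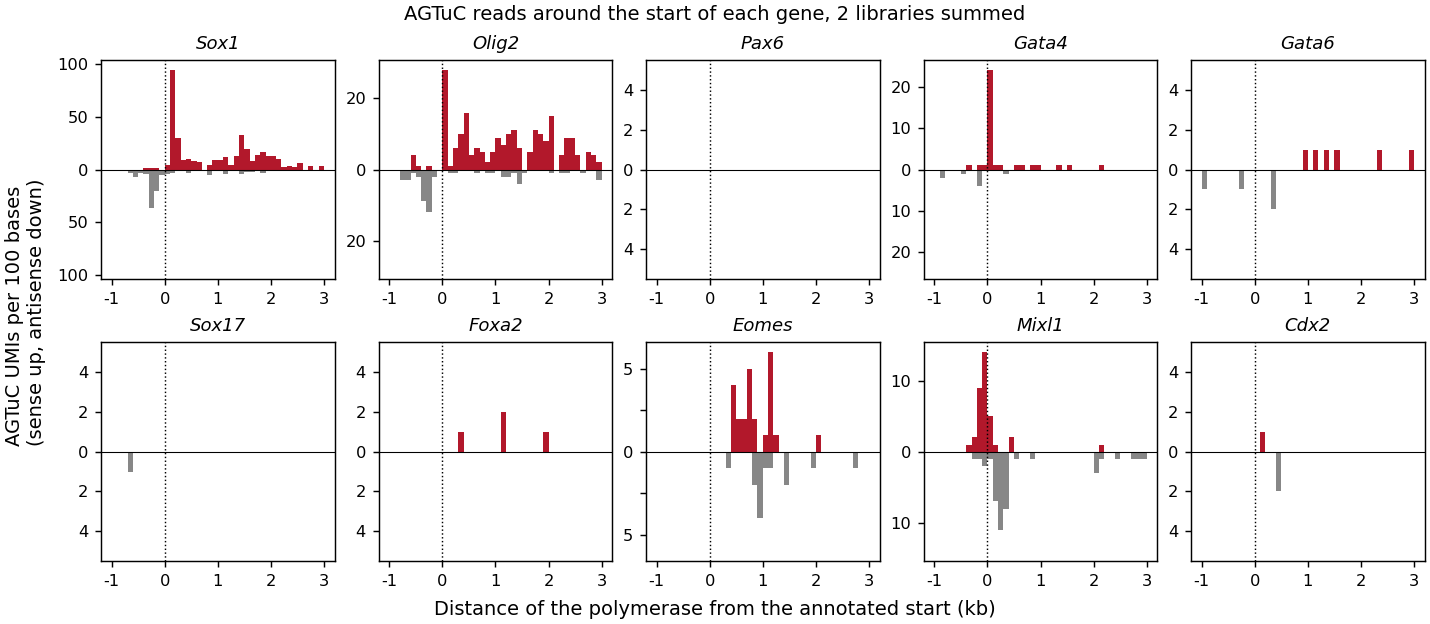
AGTuC reads around the annotated start of each gene, with the distance of the polymerase from the start in kb on the horizontal axis and UMIs per 100 bases, summed over 2 libraries, on the vertical axis, which differs in scale between panels. Red bars above 0 are sense reads and grey bars below 0 antisense reads. Sox1 has reads from 100 bases after the start and Olig2 from the start itself, both also in the body and upstream antisense, Gata4 mainly in the first 100 bases, Mixl1 before the start, and Pax6, Sox17 and Gata6 none at the start.

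Eomes, a T-box gene of trophoblast and mesendoderm, carried reads in the body and few at the start. It lies at chr9:118478189-118486132, and its promoter held 2 and 2 UMIs in AGTuC and its body 7 and 20. The body level was 0.923 and 1.27 in AGTuC, and 1.13, 0.633, 0.662 and 0.353 in inAGTuC. In scGRO–seq it had a lowest value of 0, a median of 0.524 and a highest value of 1.67. The ranges overlap. The 4 AGTuC promoter reads were at a median offset of 466, and the only RNA 5′ ends with more than 1 read were at 419 and 441, 2 reads each. Antisense body reads numbered 33, against 27 sense ones.

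Sox17, an endoderm factor of the SoxF family at chr1:4490928-4497354, had no AGTuC read within 500 bases of its start. Its AGTuC body level was 1.01 and 0.978, from 6 and 12 UMIs. In inAGTuC it was 1.44, 0.810, 1.69 and 0.677, and in scGRO–seq it had a lowest value of 0, a median of 0.686 and a highest value of 3.09. These ranges overlap too. Of the 19 AGTuC reads on the whole span 13 fell between offsets of 3500 and 3999, 4 and 9 in the libraries, and 3 reads shared an RNA 5′ end at 3746. The antisense strand of the body held no AGTuC read.

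Gata6, a GATA factor of primitive endoderm, had no AGTuC promoter read and 8 and 22 body reads on 32125 bases, a level of 0.228 and 0.303. In inAGTuC its body level was 0.243, 0.890, 1.29 and 0.343. In scGRO–seq the lowest, median and highest values were 0.145, 0.390 and 0.522. The values of the assays overlap. No body read was antisense in AGTuC, against 31 antisense and 49 sense UMIs in scGRO–seq.

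Foxa2, a forkhead factor of endoderm and floor plate at chr2:148042877-148046969, had 4 AGTuC sense reads in all, 0 and 1 in the promoter and 1 and 2 in the body. Its body level was 0.296 and 0.286 in AGTuC. In inAGTuC it was 0 in 3 libraries and 1.59 in the library Exp261_c16. In scGRO–seq it had a lowest value of 0, a median of 1.19 and a highest value of 30.1, in the experiment Exp263. The high values rest on 1 position. Of the 41 scGRO–seq body UMIs 31 lay at an offset of 1512, just behind the third curated start of the gene at 1505, and 28 of them were from Exp263. These 31 UMIs came from 7 libraries, had 2 distinct RNA 5′ ends and a median mapping quality of 35. The same position held 3 of the 4 inAGTuC UMIs and no AGTuC UMI. What these reads are was not tested.

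Pax6, a paired homeobox regulator of eye and forebrain, had almost no sense read in AGTuC. It lies at chr2:105668896-105698410. The AGTuC promoter held 0 and 0 UMIs and the body 0 and 1, a body level of 0 and 0.0155. In inAGTuC the body level was 0.685, 0.308, 0.805 and 0.859, from 39 UMIs. In scGRO–seq it had a lowest value of 0, a median of 0.539 and a highest value of 2.07, from 125 UMIs. All 4 inAGTuC values and all scGRO–seq values but the 0 of Exp156 lay above both AGTuC values. The AGTuC percentile among 2741 genes of like span was 16.3, against 44.2 in inAGTuC and 53.1 in scGRO–seq. Antisense body reads were 19 in AGTuC, 27 in inAGTuC and 96 in scGRO–seq, and Pax6os1 and Elp4 overlap Pax6 on that strand. One position at an offset of 3561 held 7 of the inAGTuC UMIs, all from Exp261, and 8 of the scGRO–seq UMIs, 7 of them from Exp263.

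Cdx2, the caudal homeobox factor of trophectoderm and gut at chr5:147300900-147307249, had 1 and 0 promoter UMIs and 0 and 1 body UMIs in AGTuC. The body level was 0 and 0.0827 in AGTuC and 2.92, 0.411, 1.29 and 0.229 in inAGTuC. In scGRO–seq it had a lowest value of 0, a median of 0.636 and a highest value of 1.58. The AGTuC values lay below all inAGTuC values, while 4 of 10 scGRO–seq experiments were at 0.

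**Figure D2:**
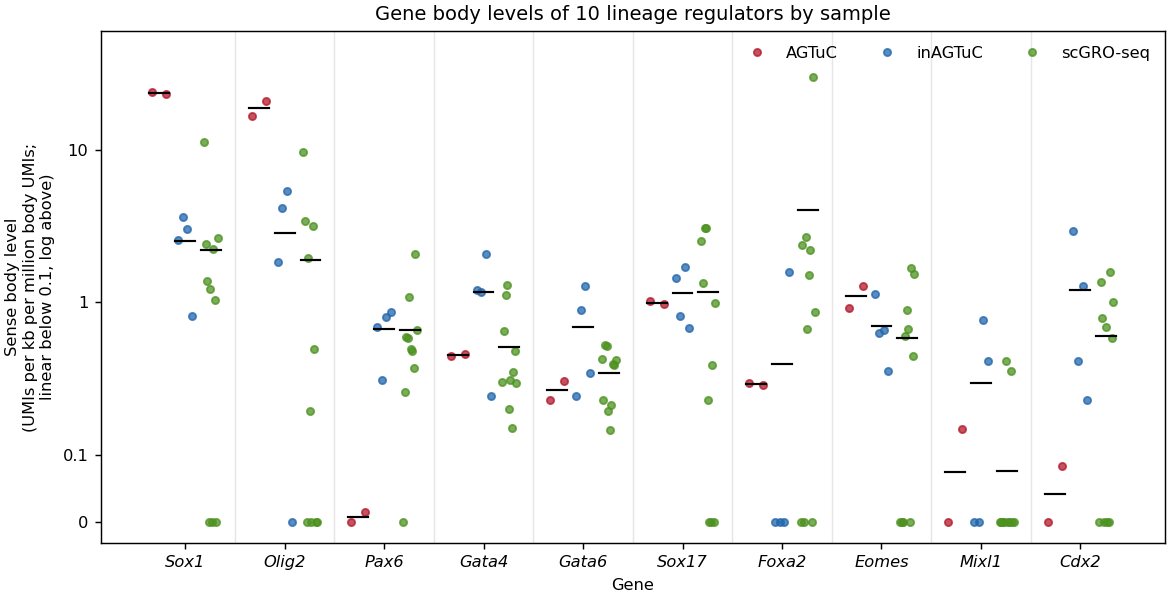
Sense body level of each gene in every sample, as UMIs per kb per 1000000 body UMIs, on a vertical axis that is linear below 0.1 and logarithmic above. Points are 2 AGTuC libraries, 4 inAGTuC libraries and 10 scGRO–seq experiments, and short lines are means. AGTuC points stand above the others in Sox1 and Olig2 and near 0 in Pax6 and Cdx2, and the highest Foxa2 point is the experiment Exp263.

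The body counts of all 16 samples were compared between assays in 1 fit across 17595 genes with at least 20 UMIs (limma voom). Mixl1, with fewer, was not tested, so 9 of the 10 genes were. Olig2 passed the minimum only through its AGTuC reads, since the other assays held 10 and 8 UMIs, and Pax6 and Cdx2, with 1 AGTuC UMI each, only through the other assays, so the minimum favoured the direction in which these 3 genes differ, as it does a lower AGTuC value of Foxa2, with 3 AGTuC, 4 inAGTuC and 41 scGRO–seq UMIs, and their number is not a result. Against inAGTuC, 2 of the 9 genes were called higher in AGTuC at an adjusted p under 0.05, where 15.1% of all genes tested were, and 2 were called lower, where 20.4% were. Against scGRO–seq again 2 were higher, where 27.7% of all genes were, and 2 lower, where 24.1% were. Because of the minimum these counts are a description, and nothing is drawn from them about the group. The fold changes and adjusted p of Olig2, Pax6 and Cdx2 given below are likewise a description. So is the way their calls held over the settings. The median log2 fold change of the 9 genes was -0.69 against inAGTuC and 0.30 against scGRO–seq, beside 0.06 and 0.20 over all genes. Both comparisons use the same AGTuC libraries.

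The higher genes were Sox1 and Olig2. Sox1 was higher in AGTuC than in inAGTuC by 3.32 ± 0.61 on the log2 scale (SE, limma voom, adjusted p = 0.000622) and than in scGRO–seq by 3.82 ± 0.45 (adjusted p = 2.32e-06). Olig2 was higher by 3.28 ± 0.85 (adjusted p = 0.00585) and 3.90 ± 0.64 (adjusted p = 7.4e-05). The call of Sox1 held under all 24 alternative settings of both comparisons. That of Olig2 against inAGTuC was lost without the AGTuC library Exp125c_c02, with an adjusted p over the settings of 0.000214 to 0.0559.

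The lower genes were Pax6 and Cdx2. Pax6 fell by 5.13 on the log2 scale (fit value -5.13 ± 0.95, limma voom, adjusted p = 0.000654) from inAGTuC to AGTuC and by 5.09 (-5.09 ± 0.90, adjusted p = 0.000146) from scGRO–seq to AGTuC. With 1 AGTuC UMI the fitted value depends on the prior count, and the ratio of AGTuC to inAGTuC counts, scaled to body UMIs, was 0.015 with an exact 95% counting interval of 0.000370 to 0.0886. Against scGRO–seq the ratio was 0.0124 with an interval of 0.000312 to 0.0704. Cdx2 gave -3.16 ± 0.91 (adjusted p = 0.0109) and -3.05 ± 0.83 (adjusted p = 0.00436), and its count ratios were 0.065 with an interval of 0.00148 to 0.469 and 0.0705 with an interval of 0.00171 to 0.436. The calls of Pax6 held under all 24 alternatives, while those of Cdx2 were lost without the AGTuC library Exp125c_c01 in both comparisons and, against inAGTuC, also without Exp125c_c02 and with the experiment as a random block.

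The other 5 genes tested did not pass in either comparison. With libraries in place of experiments as replicates Foxa2 was called lower than in scGRO–seq, at -2.69, but it passed the minimum only through scGRO–seq, and 31 of its 41 UMIs there are those at 1 position, mostly from Exp263. Their log2 values against inAGTuC were -0.80 ± 0.61 for Gata4, -1.07 ± 0.56 for Gata6, -0.23 ± 0.86 for Sox17, -0.69 ± 1.37 for Foxa2 and 0.62 ± 0.61 for Eomes (SE, limma voom). Without the inAGTuC library Exp261_c16, Gata4 passed, at -1.69 with an adjusted p of 0.0121. Against scGRO–seq the values lay between the -1.86 ± 1.19 of Foxa2 and the 0.53 ± 0.50 of Eomes. Between inAGTuC and scGRO–seq none of the 9 genes was called by limma voom, and 0% of all genes were, with 861 of 17595 genes at an unadjusted p under 0.05. Within the shared experiment Exp208 each gene had at most 24 body UMIs in a sample. Levels in the 2 inAGTuC libraries and in scGRO–seq were 2.57, 3.62 and 1.38 for Sox1 (2, 5 and 1 UMIs). The scGRO–seq level also lay below both libraries for Olig2, Eomes and Gata4. It lay above both for Sox17 alone, with 1.44, 0.810 and 3.09 (2, 2 and 4 UMIs), and did neither for the other genes.

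**Figure D3:**
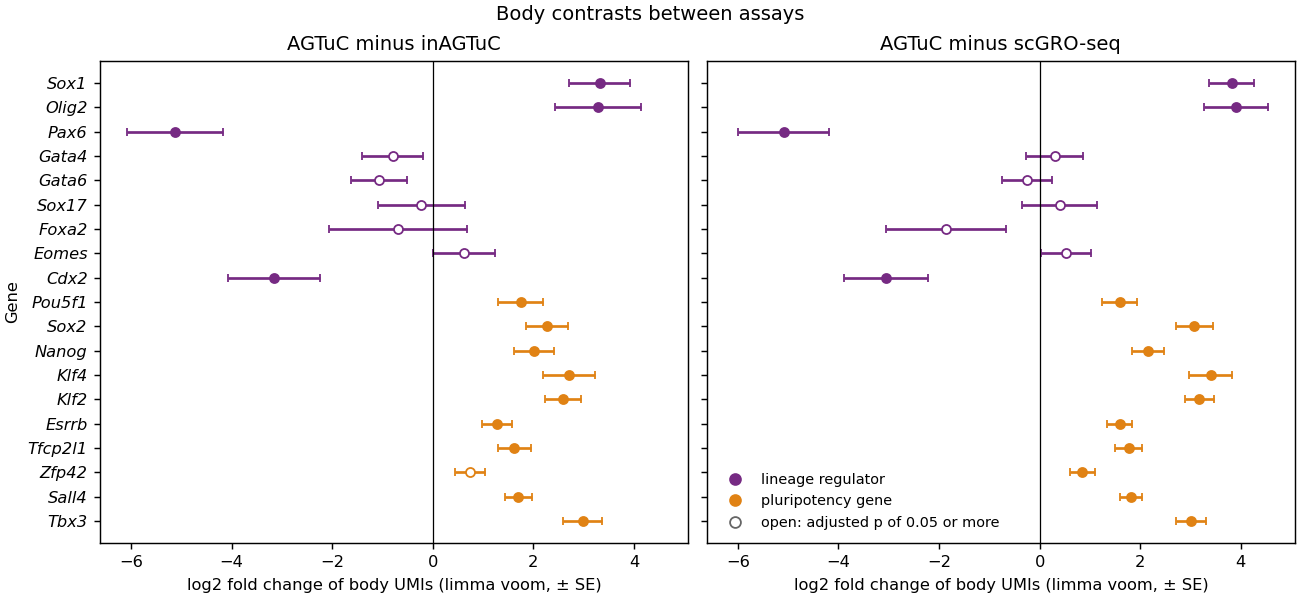
Log2 fold change of body UMIs, with SE, from AGTuC against inAGTuC on the left and against scGRO–seq on the right, for the 9 lineage regulators tested in purple and 10 pluripotency genes in orange, with filled points at an adjusted p under 0.05. Sox1 and Olig2 lie at 3.28 to 3.90, to the right of all 10 pluripotency genes, and Pax6 and Cdx2 lie between -5.13 and -3.05.

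The same comparisons were made for other lists. Of 10 pluripotency genes 9 were higher in AGTuC than in inAGTuC and 10 than in scGRO–seq, with medians of 1.88 and 1.99. Of 34 genes of differentiated tissues 16 were tested, and 10 were lower and 1 higher than in inAGTuC, and 9 were lower and 2 higher than in scGRO–seq, with medians of -2.81 and -2.66. Of 78 other lineage regulators 45 were tested, with 5 higher and 18 lower than in inAGTuC, 6 higher and 24 lower than in scGRO–seq, and medians of -2.27 and -1.96. Genes of these lists at or near 0 in AGTuC could pass the minimum only through the other assays, and so only as lower, which limits these counts and medians to a description. Lists of primitive endoderm markers, which hold Gata4, Gata6, Sox17 and Foxa2 themselves, and of trophoblast markers, which hold Cdx2 and Eomes, had medians of -0.65 and -2.46 against inAGTuC, with 1 of 18 and 3 of 8 genes tested lower and 0 and 1 higher. Against scGRO–seq 1 and 4 of them were lower and 1 and 1 higher. Of 11 fibroblast markers tested 7 and 8 were lower in AGTuC and none was higher, with medians of -3.41 and -3.61. The summed level of the primitive endoderm list was 0.509 to 0.532 in AGTuC, 0.458 to 1.31 in inAGTuC and 0.410 to 1.14 in scGRO–seq, and that of the trophoblast list 0.319 to 0.323, 0.138 to 0.5675 and 0.0744 to 0.557. The part of other cell types in these values was not tested. In AGTuC 1 of 19 genes of the first list, Afp, and 4 of 12 of the second, Hand1, Prl3d1, Tpbpa and Rhox6, had no body read, while Lama1 had 465, Lamb1 306, Sparc 285 and Tfap2c 247 body UMIs. In bulk nuclei fewer cells that transcribe a gene and fewer polymerases per cell cannot be told apart.

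At the promoter 4 of the 10 genes had at least 20 UMIs over all samples and were tested. Sox1, Olig2, Gata4 and Mixl1 passed that minimum through their AGTuC reads, so the minimum favoured higher values there. Their number is not a result, and their values are a description. All 4 were called higher in AGTuC than in inAGTuC, where 74.8% of 11637 genes tested were, and than in scGRO–seq, where 82.5% were. Their values stood around the median of all genes, which was 2.66 against inAGTuC and 2.71 against scGRO–seq on the log2 scale. Sox1 gave 3.82 ± 0.94 and 3.55 ± 0.81 (SE, limma voom), Olig2 1.99 ± 0.90 and 3.03 ± 0.77, Gata4 2.39 ± 0.93 and 2.06 ± 0.80, and Mixl1 2.68 ± 0.88 and 1.71 ± 0.76. The call of Olig2 against inAGTuC was lost in many alternative settings, among them those without Exp125c_c01 (2.33), Exp125c_c02 (1.75), Exp208_c14 (1.86), Exp261_c16 (0.97) or Exp236 (1.93). That of Gata4 against inAGTuC was lost without Exp125c_c01 (2.50) or Exp261_c16 (1.90). With the experiment as random block the calls of Olig2 and Gata4 against inAGTuC were lost too, as were those of Gata4 and Mixl1 against scGRO–seq. Against scGRO–seq the calls of Gata4 and Mixl1 were both lost without Exp125c_c01, at 2.19 and 2.10, and without Exp236, at 1.51 and 1.40. They were lost also with upper quartile scaling and, at the lowest values of 0.76 and 0.60, with libraries as replicates. The call of Olig2 against scGRO–seq held in 23 of 24 alternatives and was lost with libraries as replicates. Between inAGTuC and scGRO–seq none of the 4 was called by limma voom, where 0.0172% of all genes were and 319 genes had an unadjusted p under 0.05. With libraries as replicates 2731 genes were called, Mixl1 and Gata4 among them, at -1.98 and -1.55. The remaining 6 genes had 0 to 4 AGTuC promoter UMIs.

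The promoter share, that is promoter UMIs over promoter and body UMIs, of the 10 genes together was 34.8% in AGTuC (95% Wilson interval 31.6% to 38.1%), 11.02% in inAGTuC (7.74% to 15.5%) and 10.5% in scGRO–seq (8.03% to 13.7%), against 23.4%, 4.61% and 3.49% over all genes 11.2%, 5.96% and 5.22% in the pluripotency genes, and 45.96%, 6.44% and 6.87% in the other lineage regulators. The share also moves with gene length, for which it was not adjusted. Within AGTuC it was 38.6% in Sox1, 31.03% in Olig2, 29.6% in Gata4 and 12.9% in Eomes, and it was 0% in Gata6, Sox17 and Pax6, with 30, 18 and 1 body UMIs. Sox1 and Olig2 held 150 and 63 of the 282 promoter UMIs of the group, so that its share is mostly theirs. For Sox1 it was 36.1% in scGRO–seq as well (95% Wilson interval 22.5% to 52.4%). There, however, 9 of 13 promoter reads lay before the start, where in AGTuC 3 of 150 did. Of these 13 scGRO–seq reads 6 came from 2 cells of Exp160. The change of promoter relative to body between assays was tested for Gata4, Olig2 and Sox1. All 3 passed the promoter minimum only through AGTuC, so that it favoured a higher value there. Gata4 had 29 promoter UMIs in AGTuC. In inAGTuC and scGRO–seq promoter UMIs were 2 and 3 for Gata4, 4 and 13 for Sox1, and 10 and 3 for Olig2. Olig2 also passed the body minimum only through AGTuC. Gata4 was called in AGTuC against inAGTuC, by 3.43 ± 1.05 on the log2 scale (SE, limma voom, adjusted p = 0.00798), where 45.9% of all genes were called higher. Against scGRO–seq its 1.99 ± 0.94 did not pass (limma voom, adjusted p = 0.0648), where 52% of all genes were called higher. The former call was lost without the AGTuC library Exp125c_c01 (3.56, adjusted p = 0.0612), and the latter value passed without Exp160, Exp260 or Exp264a, at 2.16 to 2.19. Sox1 gave 0.64 ± 1.02 and -0.19 ± 0.90, and Olig2 -1.21 ± 1.06 and -0.62 ± 0.94, none past the threshold, while the median of all genes was 2.27 and 2.16. Between inAGTuC and scGRO–seq none of the 3 was called by limma voom, and 0% of all genes were, with 527 of 11350 genes at an unadjusted p under 0.05.

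Sense reads were set beside those on the strand opposite to each gene, which hold any background and also antisense transcription, as from Pax6os1 and Elp4 over Pax6 and Gata6os over Gata6. Over the 10 genes sense body UMIs were 529 against 124 antisense in AGTuC, 226 against 124 in inAGTuC and 408 against 266 in scGRO–seq, that is 4.27, 1.82 and 1.53 sense UMIs per antisense UMI. Pluripotency genes had 11.7, 2.04 and 2.56, genes of differentiated tissues 1.04, 1.53 and 1.47, other lineage regulators 1.66, 1.04 and 1.05, and all genes 4.98, 2.04 and 2.20. Of the 408 sense UMIs in scGRO–seq 28 are the Foxa2 reads of Exp263 at 1 position. Olig2 had 8 sense and 9 antisense body UMIs there, Eomes 33 and 32, Pax6 125 and 96, and Gata4 85 and 56. In AGTuC Sox1 had 239 sense and 26 antisense body UMIs, Olig2 140 and 17, and Gata4 69 and 9, while Mixl1 had 1 and 19. Most of the 529 sense UMIs in AGTuC were thus of Sox1 and Olig2, so that the 4.27 of the group is mostly theirs. The antisense level summed over the 10 genes was 0.269 to 0.285 in AGTuC, 0.191 to 1.02 in inAGTuC and 0.101 to 1.05 in scGRO–seq.

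**Figure D4:**
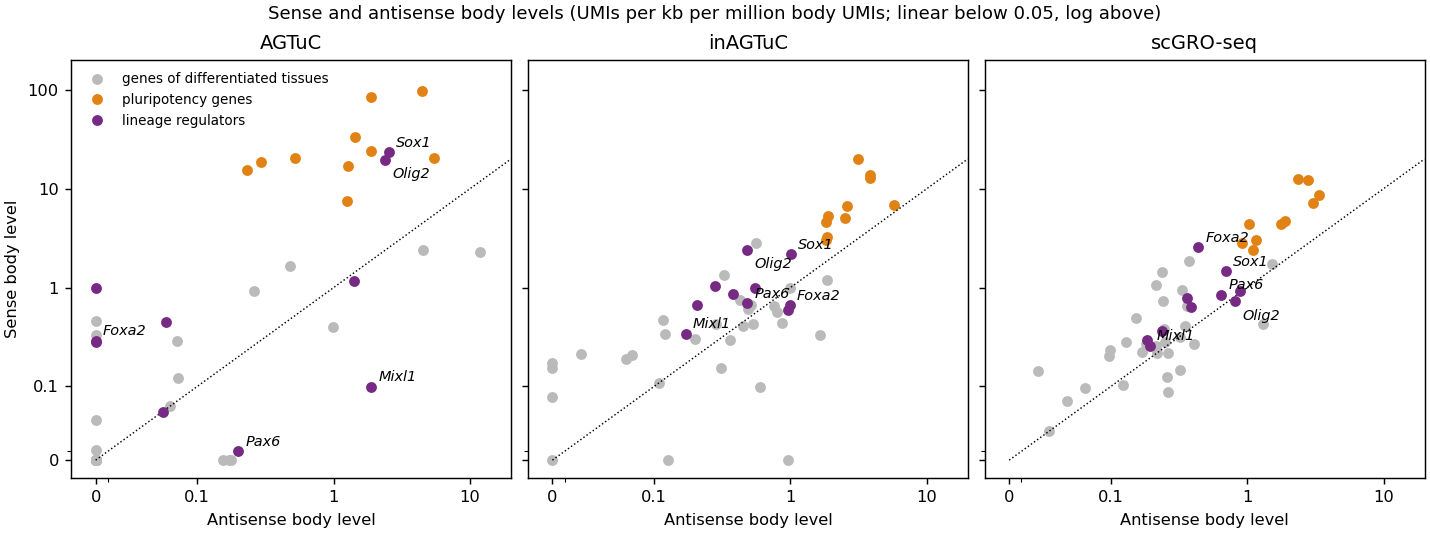
Sense against antisense body level of single genes in the 3 assays, pooled over samples, on axes that are linear below 0.05 and logarithmic above, with the dotted line at equal levels. Purple points are the lineage regulators, orange points pluripotency genes and grey points genes of differentiated tissues. Sox1 and Olig2 reach the pluripotency genes in AGTuC and lie below them in the other assays, where most purple points are among the grey ones.

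In single cells each gene was read rarely. So were genes of like span, whose median shares of cells ran from 0.199% for the span of Olig2 to 5.99% for that of Gata4. A body UMI on at least 1 of the 10 genes was found in 348 of 2512 cells, 13.9% (95% Wilson interval 12.6% to 15.3%, counting error only), and UMIs on at least 2 of them in 39 cells, with no more than 3 genes in 1 cell. Cells with at least 1 gene had a median of 4487 UMIs, those with at least 2 a median of 7760, and all kept cells 3424. A gene was read in a cell 394 times in all, of which 14 had a second UMI of the same gene and none more than 2. The pairs met most often were Gata4 with Pax6, in 7 cells, and Foxa2 with Gata4, in 5 cells. How many such pairs would be met by chance was not computed. Of the 39 cells with Foxa2, 10 had a body UMI of it away from the offset of 1512.

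Pax6 was found in 4.70% of all kept cells (3.94% to 5.60%), against 3.19% of cells with an antisense UMI. Of its 118 cells 68 were from Exp236, and without that experiment Pax6 was in 2.94% and Gata4 in 3.59% of cells, so that their order turns. The medians over experiments were 2.80% for Pax6 and 2.81% for Gata4. Over all kept cells the share was 3.30% for Gata4 against 2.19% antisense, 1.91% for Gata6 against 1.19%, and 1.55% for Foxa2 against 0.279%. Eomes was found in 1.31% against 1.27%, Sox1 in 0.876% against 0.398%, and Cdx2 in 0.836% against 0.358%. Sox17 was found in 0.717% against 0.438%, Olig2 in 0.319% against 0.319%, and Mixl1 in 0.159% against 0.119%. Leaving out 1 experiment moved the share of Foxa2 to 0.487% (Exp263), that of Olig2 to 0.208% (Exp156) and that of Mixl1 to 0.0588% (Exp236). The sense share was above the antisense share in 9 of the 10 genes, among them Eomes with 33 against 32 cells and Mixl1 with 4 against 3. It was above in 20 of 30 genes of differentiated tissues, in 37 of 77 other lineage regulators and in 10 of 10 pluripotency genes. The count over all genes was not made, so the 9 of 10 is a description and no result about the group. The median sense and antisense shares of all genes were 0.398% and 0.319% at spans around 5097 bases, and 1.67% and 1.075% around 13562 bases. The sense shares of Eomes, Olig2 and Mixl1 were at or close to their antisense shares. How much of the antisense share is background was not tested.

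The 3 longest genes had the 3 largest shares, and the genes with the highest AGTuC levels did not. Pax6, Gata4 and Gata6, with spans of 29515, 46358 and 33126 bases, led, whereas Sox1, with 4037 bases, and Olig2, with 3128 bases, did not. Against genes of like span Pax6 stood at percentile 54.03, Gata4 at 34.2 and Gata6 at 28.2 by share of cells. Sox1 stood at 77.9, Olig2 at 61.2, Foxa2 at 88.8, Eomes at 63.8, Cdx2 at 60.9, Sox17 at 56.3 and Mixl1 at 34.65. Without the reads at its fullest position Foxa2 was found in 0.398% of cells (0.216% to 0.731%) and Pax6 in 4.38%. For comparison, Pou5f1 was found in 5.45% and Nanog in 5.22% of cells, at percentiles of 97.4 and 96.5.

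**Figure D5:**
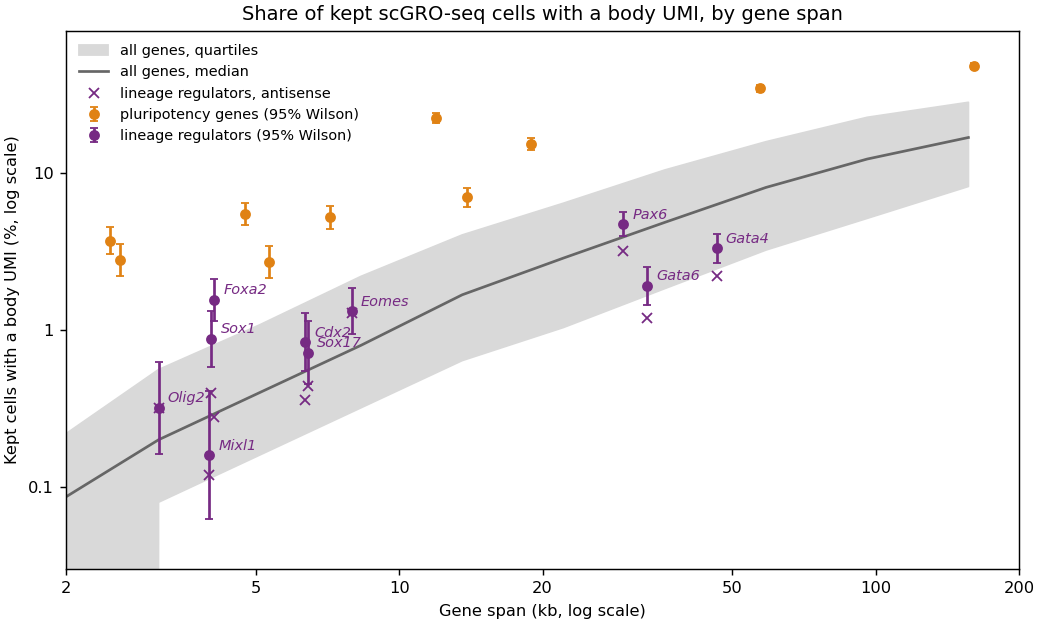
Share of kept cells with a sense body UMI against gene span in kb, both on log scales, for the lineage regulators in purple and pluripotency genes in orange with 95% Wilson intervals, crosses for the antisense share of the lineage regulators, and the median and quartiles of all genes in grey. Pax6, Gata4 and Gata6 lie near or below the median of genes of their span, Sox1 close to the upper quartile, and Foxa2 and all pluripotency genes above it.

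The other lineage regulators with the most AGTuC promoter UMIs were Gbx2 with 164, Cdx1 with 128, Foxa3 with 109, En2 with 104 and Sox21 with 64. Gbx2, a homeobox gene of the hindbrain that is also known from pluripotent cells, was similar to Sox1 in its body level, 19.1 in AGTuC, 1.84 in inAGTuC and 1.74 in scGRO–seq. Cdx1, Foxa3 and En2 had promoter shares of 66.3%, 80.7% and 63.8% in AGTuC, between those of Sox1 and Mixl1. The regulators found in most cells were Runx1, Lmx1a, Wt1, Pax5 and Pax2, which are longer genes. Their sense and antisense shares of cells were 15.0% and 12.6%, 11.4% and 8.32%, 9.08% and 5.02%, 8.76% and 8.92%, and 7.44% and 5.53%. Wt1, as Pax6, had 1 AGTuC body UMI, against 66 in inAGTuC and 260 in scGRO–seq, and Lmx1a had 6, 98 and 394. Of the scGRO–seq UMIs Exp236 held 175 of Wt1, and Exp211 and Exp260b held 117 and 139 of Lmx1a. The genes whose log2 promoter level over the 16 samples was most like the mean of the 10 genes were Tead4, Chrnb2 and Calhm2, with Pearson r of 0.861, 0.847 and 0.842 among 11633 genes. These values describe the samples, which share their assay and depth, and each of the 3 genes had 14 to 20 AGTuC promoter UMIs.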

How the data were processed

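For each library the authors deposited its mapped reads, with position, strand, barcode and UMI and, as a score, the mapping quality of each read. Per the study's methods adaptors were trimmed, reads split by barcode and mapped to mm10, and duplicates removed by UMI. The submitters' processing notes name cutadapt, Bowtie2 and UMI-tools. From these lists sense and antisense UMIs were counted at the RNA 3′ end on RefSeq genes (Python 3.11.15, pandas 2.3.3, numpy 2.4.6, scipy 1.17.1, matplotlib 3.10.9). Molecules listed in more than 1 library were left out. Kept cells had at least 1000 UMIs and 750 genes, in 35 libraries with at least 24 such cells. Pooled counts of 16 samples with at least 20 UMIs per gene were fitted with limma voom 3.58.1 in R 4.3.3, scaled to total body UMIs, with Benjamini-Hochberg adjustment. The fit was also run on simulated counts with known changes, and the outcome is not given here. Exp261_c16 was deposited both as scGRO–seq and as inAGTuC, and the 2 lists share molecules. The scGRO–seq list was not used, and the library was counted as inAGTuC. Which label applies was not tested. The genes, and all other lists, were chosen with earlier results of these data known. Beside the 10 genes and 10 pluripotency genes, the text names at most 5 other lineage regulators by AGTuC promoter UMIs, 5 by cells, and the 3 genes most like the group in promoter pattern.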

Additional observations from a re-analysis of the deposited data

Results flagged for a closer look

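Of 30 sets of sample values, 9 held a sample far from the others, by a rule that flags about 1 in 20 sets by chance when values are normally distributed. These sets are small and often mostly 0, and levels and shares of cells count the same reads, so that this rate need not hold here. For Foxa2 the inAGTuC library Exp261_c16 had a body level of 1.585 where the others had 0, and the scGRO–seq experiment Exp263 had 30.13 where the next had 2.7. In Exp263 Foxa2 was also found in 11.11% of cells, against 1.80% in the next experiment. Pax6 had a body level of 2.069 in Exp263 and of 1.08 in the next. The experiment Exp156 had the highest Sox1 body level, 11.25 against 2.63, and the highest share of cells with Sox1, 4.854% against 1.12%. The same experiment had an Olig2 body level of 9.635 against 3.43, and Olig2 in 2.913% of cells against 1.09%. It held 103 kept cells with a median of 1864 UMIs. Mixl1 was found in 0.3695% of cells in Exp236, against 0.189% in the next experiment. The causes were not tested.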

How the results depend on the processing

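Body calls of all genes against inAGTuC, 2656 higher and 3590 lower, became 1529 higher with upper quartile scaling and 2078 lower with the experiment as random block, and leaving out 1 sample gave 837 to 2800 and 682 to 3713 (fewest without Exp125c_c02, where 1 of the 10 genes stayed higher). Of the 10 genes, 2 higher became 1 to 2 and 2 lower became 1 to 3 on leaving out 1 sample, and 1 with the block. Against scGRO–seq, 4876 higher became 2629 with upper quartile scaling (2445 to 5042 without 1 sample) and 4245 lower became 7475 with a minimum of 1 UMI (1575 to 4297), and 2 lower among the 10 genes became 1 to 2 without 1 sample and 3 with libraries as replicates or a minimum of 1 UMI. Between inAGTuC and scGRO–seq 0 calls became 31 with libraries as replicates and 0 to 77 without 1 sample (77 without Exp261_c16, where Gata4 was the 1 call among the 10 genes). At promoters 8708 higher against inAGTuC became 5746 to 9149, the 4 higher genes 1 to 4, or 2 with the block, and 0 lower became 2 with a minimum of 1 UMI. Against scGRO–seq 9597 became 4911 with libraries as replicates and 6998 to 9867, the 4 genes 2 with upper quartile scaling, 1 with libraries, 2 with the block and 2 to 4 without 1 sample, and 0 lower became 3 with a minimum of 1 UMI. Between inAGTuC and scGRO–seq 2 promoter calls became 0 without small RNA reads or with a window of 250 bases, 2731 with libraries, 1 with the block and 0 to 4 without 1 sample, and 0 of the 10 genes became 2 with libraries. For promoter over body, 5210 higher against inAGTuC became 1413 to 5924, and the 1 gene became 2 with a minimum of 1 UMI and 0 to 1 without 1 sample. Against scGRO–seq 5897 became 1790 with libraries and 1769 to 6297, 0 higher genes became 1 with all deposited reads or a minimum of 1 UMI and 0 to 1 without 1 sample, and 0 lower became 1 with that minimum. Between inAGTuC and scGRO–seq 0 became 2062 with libraries (1 of the 10 genes) and 0 to 4. Directions that turned in comparisons with AGTuC were those of Sox17 against inAGTuC (-0.23; 0.10 with all deposited reads and 0.28 with the block) and against scGRO–seq (0.40; -0.25 with libraries, -0.04 to 0.59 without 1 sample), and against scGRO–seq of Gata4 (0.30; -0.14 with upper quartile scaling, -0.06 to 0.43), Gata6 (-0.25; 0.41 with all reads), Eomes (0.53; -0.02 with libraries) and Sox1 promoter over body (-0.19; 0.01 with all reads, -0.53 to 0.13), none of them called. With no call in the main setting, the inAGTuC against scGRO–seq body values of Sox17, Olig2, Pax6, Cdx2, Sox1 and Eomes and the promoter values of Gata4, Olig2 and Sox1 took both signs over the settings. The median AGTuC body level of the 10 genes, 0.3709, was 0.3434 with bodies up to the annotated end and 0.3699 to 0.3804 without 1 library, and their promoter share, 34.77%, was 27.3% with 250 bases and 29.74% to 36.79%. The median share of cells, 1.095%, was 0.6879% over all barcodes and 0.6767% without the fullest position of each gene. By AGTuC body level, not share of cells, the median percentile among genes of like span, 46.69, was 45.1 with spans within a factor of 1.5. The fullest position and mapping quality settings were chosen after seeing the data. The random block was not run for promoter over body, where the sample is already a term. The causes were not tested. No paired fit was run: AGTuC shares no experiment with the other assays, and of the inAGTuC experiments only Exp208 has scGRO–seq cells in the fits, since scGRO–seq libraries of Exp234 and Exp261 were not among the 10 experiments used. Genes with few UMIs are limited by depth.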
